A study of Mus musculus with 116 samples.

Results

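The immediate early and AP-1 genes described here are Fos, Fosl1, Jun, Junb, Jund, Egr1, Ier2, Ier3, Atf3 and Myc, a named list of 10 genes for which no measured value served as a selection rule, although earlier results of these data were known when it was drawn up. All 10 were present among the 40202 gene symbols of the count files. Their RNA was followed in libraries made by nanoSPLITS, a method that lyses cells in a nanodroplet and divides the droplet, with one portion going to RNA sequencing and the other to protein measurement. The libraries fell into 5 groups, all from untreated mouse lines under standard culture: an input series of C10 with 1 cell (n = 8), 3 cells (n = 6) or 10 cells (n = 6) per library, and single cells of C10 (48 libraries, of which 46 were used) and of SVEC (n = 48). C10 is labelled an alveolar type II epithelial line and SVEC an endothelial line. No group carried an added agent or a changed gene, and no culture, passage, day or sequencing run was named for any library, so a batch and a group cannot be told apart.

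Immediate early genes are switched on within minutes of a stimulus such as serum, a growth factor or mechanical stress, without the need for new protein synthesis, and most of their transcripts are short-lived. Fos proteins pair with Jun proteins to form AP-1, a transcription factor that binds short palindromic sites near target genes. Signals that pass through the ERK kinases reach the Fos and Egr1 promoters through serum response factor and its partners, and a cAMP response element with a TATA box is a textbook feature of the Fos promoter. Because transcription comes in bursts, such genes are often found on in one cell of a culture and off in its neighbour.

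The sequence just before the annotated start is shown for 4 members, because the lines and the cells are compared below by the transcripts that begin there. A RefSeq promoter window of GRCm38.p6, from 250 bases before to 50 after the start, was found for 6 of the 10 genes: Atf3, Fos, Ier3, Jun, Junb and Jund. Each run below holds the 110 bases before the start on the gene's own strand. Capitals mark TGACGT on either strand (the core of the cAMP response element), TATAAA (the TATA box) and CCAAT.
Fos, chr12:85473780-85473889, plus strand: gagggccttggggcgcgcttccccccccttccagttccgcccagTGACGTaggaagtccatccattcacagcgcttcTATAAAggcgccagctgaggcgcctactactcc
Junb, chr8:84978749-84978858, minus strand: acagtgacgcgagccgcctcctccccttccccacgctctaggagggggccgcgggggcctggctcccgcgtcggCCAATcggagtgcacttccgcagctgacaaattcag
Jun, chr4:95052223-95052332, minus strand: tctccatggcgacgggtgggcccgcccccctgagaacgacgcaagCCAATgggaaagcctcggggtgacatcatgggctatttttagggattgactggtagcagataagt
Atf3, chr1:191183334-191183443, minus strand: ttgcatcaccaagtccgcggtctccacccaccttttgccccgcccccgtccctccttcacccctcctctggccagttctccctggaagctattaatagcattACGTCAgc
In Fos, TGACGT lay at -66 to -61 and TATAAA at -33 to -28 from the start. Atf3 held TGACGT on the opposite strand at -8 to -3. CCAAT lay at -36 to -32 in Junb and at -65 to -61 in Jun.

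The motifs were searched on both strands of the whole windows of 300 bases. TGACGT was in 2 of the 6 windows and in 7.51% of all 32851 windows, TATAAA in 2 of 6 and 13.6%, and CCAAT in 4 of 6 and 37.4%. Not all of these lay before the start. The TATAAA of Junb was at 1 to 6, and the CCAAT of Atf3 at 6 to 10 on the opposite strand. The whole palindrome TGACGTCA, which contains TGACGT, was in 0 of 6 windows and 1.79% of all. The AP-1 site TGACTCA was in 0 of 6 and 5.20%, and the CArG box of the serum response element was in 0 of 6 and 1.63%. TGACGT and CCAAT were added to the search after the sequences had been seen. These matches describe the letters of the windows, and a motif outside a window would not be found.

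Totals over genes ranged from 5122 to 5911755 counts in the single cells used, with medians of 1881704 in C10 and 434945 in SVEC, and from 430798 to 15385625 in the input series. The median share of counts on mitochondrial genes was 7.14% in C10 and 4.30% in SVEC single cells. C10 single cells 37 and 48, with fewer than 1000 counts, were left out. In the input series, 1-cell replicate 1 stood apart, with 538 genes detected and 64.6% of its counts on mitochondrial genes, and no member had a count in it. Many defining markers of both labelled cell types were absent. Kdr, Tie1, Vwf, Emcn, Esam and Cldn5, which are 6 of 12 endothelial markers, were at 0 in all single cells. Pecam1 had a count in 12 C10 and 5 SVEC cells, Flt1 in 13 and 8, and Tek in 12 and 3. Eng had one in 10 C10 and 3 SVEC cells, Cdh5 in 1 and 1, and Erg in 0 and 1. The summed level of the 12 had a median of 0 CPM in SVEC (range 0 to 138) and 0.60 CPM in C10 (range 0 to 48.3). Sftpa1, Sftpb, Sftpc, Sftpd, Krt8 and Nkx2-1, which are 6 of 10 alveolar markers, were at 0 as well, with sums over the list of 0 to 216 CPM in C10 and 0 to 146 CPM in SVEC. Of the alveolar list, the epithelial cadherin Cdh1 had a count in 24 of 46 C10 cells and 1 of 48 SVEC cells, at means of 1.01 ± 2.45 and 0.030 ± 0.208 CPM. Abca3 had a count in 14 C10 and 6 SVEC cells, Krt18 in 3 and 0, and Epcam in 1 and 0. Of 6 fibroblast markers, Col1a1 and Dcn had counts in 46 of 46 C10 cells and in 47 and 31 of 48 SVEC cells, Col3a1 in 37 and 27, Col1a2 in 6 and 10, Pdgfra in 9 and 10, and Pdgfrb in 4 and 9. The 6 summed to 476 to 15368 CPM in C10 and 0 to 11331 CPM in SVEC. Of the leukocyte markers, Ptprc and Cd3e were at 0 in all single cells, Cd68 had counts in 4 C10 and 4 SVEC cells, and Lyz2 in 2 C10 and 7 SVEC cells. The part of cell identity in the levels below was not tested.

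The first question was how the members differ between single cells of the C10 and SVEC lines. Fos and Ier2 were the members with the widest gap, with mean levels 5.13 and 4.77 times as high in SVEC, and Jund was 3.07 times as high in C10. Jun, Egr1 and Junb were 2.43, 2.09 and 2.07 times as high in SVEC by mean. Myc, Fosl1, Atf3 and Ier3 were within 2-fold. Levels are counts per 1000000 counts of the library (CPM), as a mean ± SD over cells. Each line is 1 sample in this design, since its cells are not replicates of the line, so no test between the lines was made. Shares of cells with a count are given with exact binomial 95% intervals and summed counts with exact Poisson 95% intervals, both of which cover counting error only. The protocol names no molecular identifiers, so reads copied from 1 molecule were counted apart.

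Fos, the founding member of its family and a partner of Jun in AP-1, ranged from 0 to 846 CPM in C10 cells with a median of 89.0, and from 0 to 3182 CPM in SVEC cells with a median of 458. A count was present in 36 of 46 C10 cells (78.3%, interval 63.6% to 89.1%) and in 41 of 48 SVEC cells (85.4%, interval 72.2% to 93.9%). The lines overlapped, but 16 SVEC cells lay above the highest C10 cell. Mean levels were 142 ± 174 CPM in C10 and 729 ± 750 CPM in SVEC. In SVEC the pattern was close to on or off: the lowest level of Fos in a cell with a count was 129 CPM, and the other 7 cells were at 0. Summed counts were 13135 (interval 12911 to 13362) in C10 and 20045 (interval 19768 to 20324) in SVEC, although the SVEC libraries were shallower.

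Fosl1 encodes Fra-1, a Fos-family protein that lasts longer after a stimulus than Fos. It was a low gene in both lines, at 0 to 95.9 CPM in C10 with a median of 1.38, and 0 to 52.9 CPM in SVEC with a median of 0. Fosl1 had a count in 24 C10 cells and 14 SVEC cells, and its mean level was 7.95 ± 17.6 CPM against 4.88 ± 10.1 CPM. The ratio of the means, 1.63 in favour of C10, ranged from 1.23 without C10 cell 24 to 2.06 without SVEC cell 15. Fosl1 overlaps Ccdc85b in RefSeq, whose mean levels were 39.3 CPM in C10 and 20.8 CPM in SVEC. The strand setting of the counting is not given in the sources used here, so how reads in the overlap were counted is not known.

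The 3 Jun-family genes went different ways. Junb was on in nearly every cell: it ranged from 0 to 609 CPM in C10 (median 127) and from 0 to 862 CPM in SVEC (median 198), with a count in 44 of 46 and 44 of 48 cells. The ranges overlapped over most cells, and 7 SVEC cells exceeded the highest C10 cell. Junb averaged 139 ± 114 CPM in C10 and 286 ± 241 CPM in SVEC, a ratio of 2.07 that was 1.98 without SVEC cell 4.

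Jun, the founding partner of Fos, was off in most cells of both lines, with a count in 14 of 46 C10 cells and 16 of 48 SVEC cells. Its range was 0 to 74.1 CPM in C10 and 0 to 269 CPM in SVEC, with a median of 0 in both. The higher SVEC mean (13.6 ± 40.9 against 5.62 ± 14.1 CPM) rested on SVEC cell 8, a library with 18621 counts in which 5 counts of Jun gave 41.0% of the line's summed CPM. The ratio of 2.43 was 1.46 without it.

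Jund, which is usually expressed at a steady level rather than induced, ranged from 0 to 51.8 CPM in C10 (median 5.60) and from 0 to 24.3 CPM in SVEC (median 0). It had a count in 35 C10 cells (76.1%, interval 61.2% to 87.4%) and 23 SVEC cells (47.9%, interval 33.3% to 62.8%). At least 5 counts of Jund were present in only 28 C10 cells and 8 SVEC cells. The 6 highest C10 cells lay above every SVEC cell, and the other cells overlapped. Jund averaged 10.5 ± 14.3 CPM in C10 and 3.42 ± 5.27 CPM in SVEC, and its sums rested on only 956 and 113 counts (intervals 896 to 1019 and 93 to 136).

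Atf3, a stress-induced member of the ATF/CREB family that can pair with Jun proteins, was seen in few cells, at widely spread levels. It was above 0 in 17 C10 cells, at 0.59 to 341 CPM with a median of 58.2 CPM among them. In SVEC, 10 cells had a count, at 12.8 to 332 CPM with a median of 72.7 CPM among them. The means of 29.1 ± 66.0 CPM in C10 and 22.2 ± 66.1 CPM in SVEC differed by less than either SD, and without C10 cell 47 they were equal (log2 ratio -6.3e-05). Counts summed over cells put Atf3 the other way, with a log2 ratio of -0.59.

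**Figure D1:**
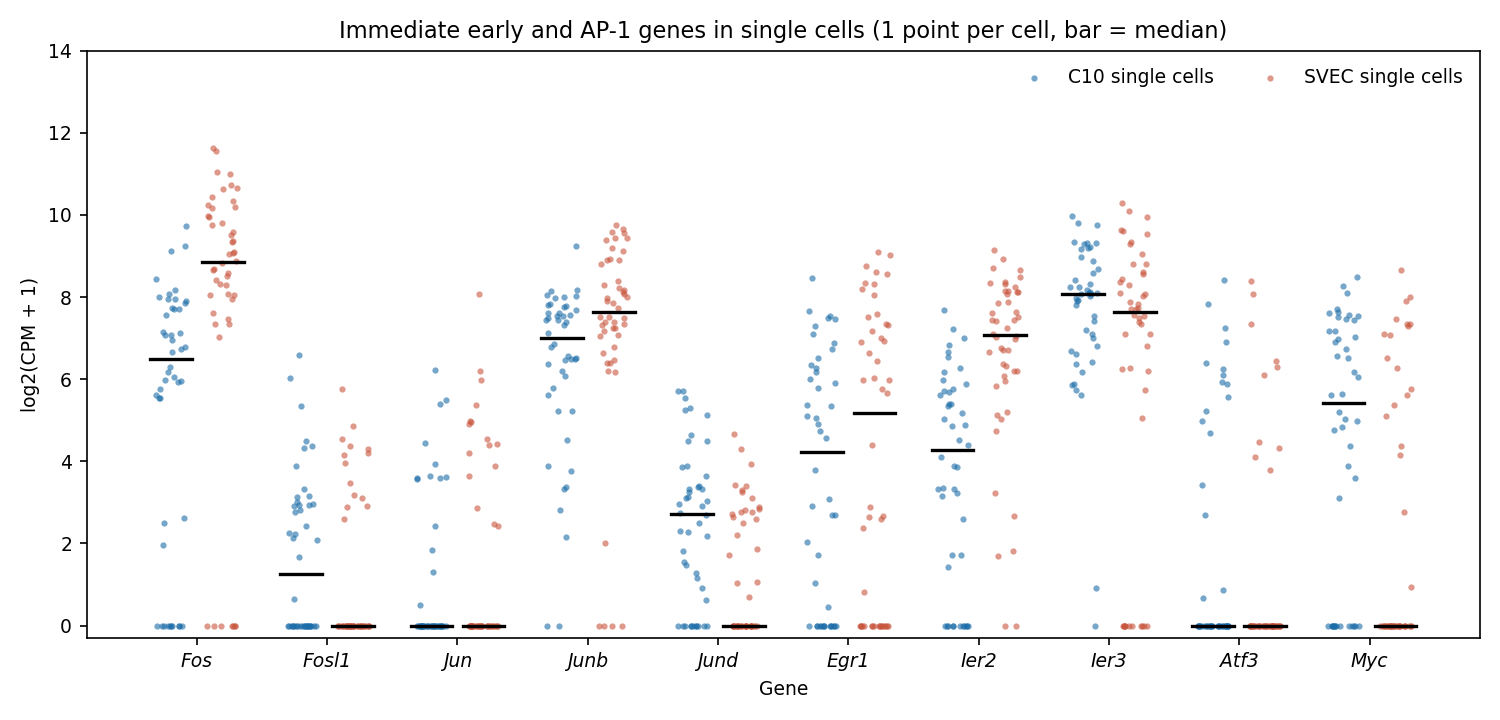
Level of each member in every single cell, as log2(CPM + 1), with 1 point per cell (46 C10 cells in blue, 48 SVEC cells in red) and a bar at the median. Fos and Ier2 sit higher in SVEC, while Jun and Atf3 are at 0 in most cells of both lines.

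Egr1, a zinc-finger transcription factor, ranged from 0 to 352 CPM in C10 with a median of 17.8, and from 0 to 544 CPM in SVEC with a median of 35.1. The share of cells with a count was alike, at 32 of 46 (69.6%, interval 54.2% to 82.3%) and 31 of 48 (64.6%, interval 49.5% to 77.8%). Among the cells that had a count, the median Egr1 level was 47.5 CPM in C10 and 122 CPM in SVEC. Low levels were harder to register in SVEC, where 3 counts in a library averaged 34.3 CPM, against 3.32 CPM in C10. The part of depth in these medians was not tested. The means over all cells were 51.6 ± 74.7 CPM and 108 ± 151 CPM, with a ratio of 2.09 that was 1.91 without SVEC cell 16.

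Ier2, a small nuclear protein of the immediate early response, ranged from 0 to 204 CPM in C10 with a median of 18.3, and from 0 to 563 CPM in SVEC with a median of 134. It had a count in 35 C10 cells (76.1%, interval 61.2% to 87.4%) and in 46 SVEC cells (95.8%, interval 85.7% to 99.5%). At least 5 counts of Ier2 were present in 33 C10 cells and 40 SVEC cells. As with Fos, 16 SVEC cells lay above the highest C10 cell, and 42 lay above the C10 median. Mean Ier2 levels were 35.7 ± 45.1 CPM in C10 and 170 ± 139 CPM in SVEC.

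Ier3, which acts in cell survival under stress, was the member with the smallest gap. It ranged from 0 to 1006 CPM in C10 (median 270) and from 0 to 1255 CPM in SVEC (median 197), and the ranges overlapped almost throughout. The means were 315 ± 248 CPM in C10 and 282 ± 309 CPM in SVEC. The lines stood apart more in how many cells had a count of Ier3, at 45 of 46 in C10 (97.8%, interval 88.5% to 99.9%) and 37 of 48 in SVEC (77.1%, interval 62.7% to 88.0%).

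Myc, which pairs with Max to drive growth genes and is induced later than Fos, ranged from 0 to 357 CPM in C10 with a median of 41.9, and from 0 to 406 CPM in SVEC with a median of 0. A Myc count was present in 32 of 46 C10 cells (69.6%, interval 54.2% to 82.3%) and 19 of 48 SVEC cells (39.6%, interval 25.8% to 54.7%). Among cells with a count, the medians of 112 and 90.7 CPM were close. Mean Myc levels were 83.3 ± 94.1 CPM in C10 and 46.1 ± 86.6 CPM in SVEC, a ratio of 1.81 that was 2.17 without SVEC cell 43.

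By a ratio of mean CPM of at least 2, 6 of the 10 members were past the threshold, 1 higher in C10 and 5 higher in SVEC. Of 9303 genes with a count in at least 25% of the cells of a line, 37.4% were past it, with 18.9% higher in C10 and 18.5% higher in SVEC. The median log2 ratio of C10 over SVEC was -0.44 over the members and 0.0017 over all those genes. With TMM scaling 5 members were past 2-fold, 3 higher in C10 (Fosl1, Jund and Myc) and 2 higher in SVEC (Fos and Ier2). With the mean of log2(CPM + 1) there were again 3 higher in C10 (Jund, Ier3 and Myc) and 2 higher in SVEC (Fos and Ier2), so only Fos, Ier2 and Jund were past 2-fold in all 3 of these settings. Of the 6 by mean CPM, Jun, Egr1 and Junb each came below 2-fold when 1 cell was left out, as given above, whereas Fos, Ier2 and Jund stayed past it whichever cell was left out.

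**Figure D2:**
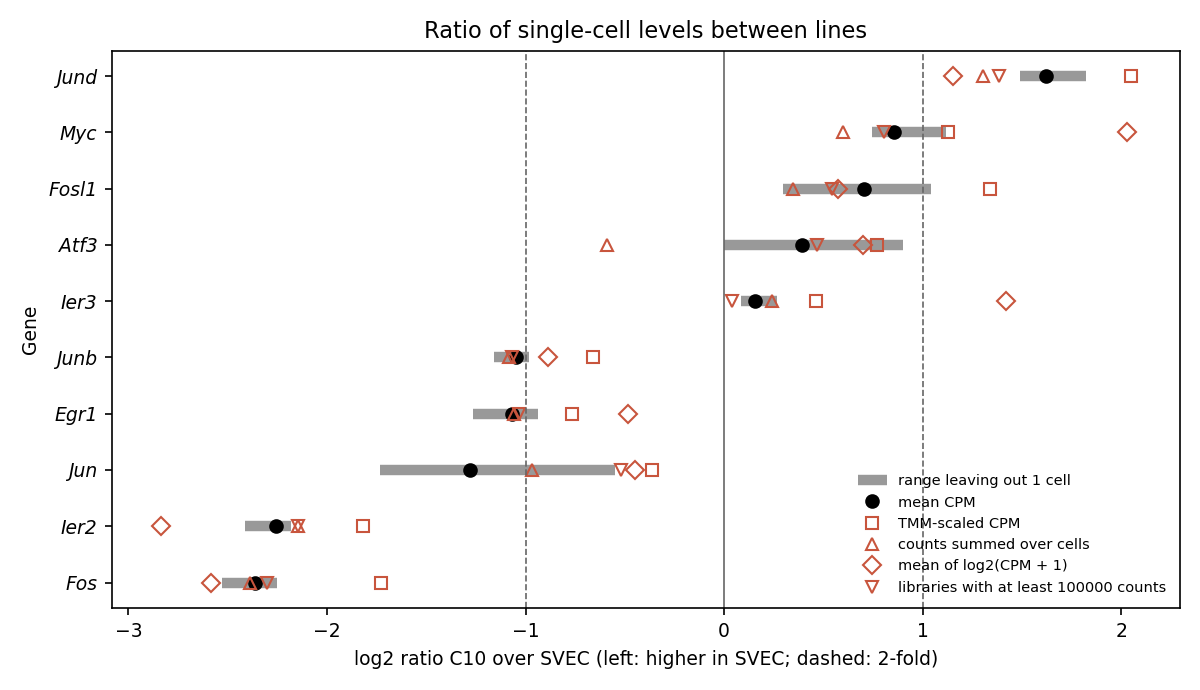
Log2 ratio of C10 over SVEC single-cell levels for each member, with the ratio of mean CPM as a black dot, the range on leaving out 1 cell as a grey bar and other settings as open marks. Fos, Ier2 and Jund stay beyond the dashed 2-fold lines in every setting drawn, whereas the marks of Atf3 lie on both sides of 0.

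Depth differed between the lines, so the scaling and the detection were varied. With TMM scaling the log2 ratios of all genes shifted upwards, to a median of 0.41, and the share of past-threshold genes that were higher in C10 went from 50.6% to 71.9%. Relative to that median the log2 ratios under TMM were -2.14 for Fos, -2.23 for Ier2, -1.18 for Egr1, -1.07 for Junb, -0.77 for Jun and 1.64 for Jund. With the mean of log2(CPM + 1) the median of all genes was 0.62 and 86.9% of the genes past the threshold were higher in C10. Relative to that median, Fos was at -3.21, Ier2 at -3.46, Junb at -1.51, Egr1 at -1.11, Jun at -1.07, Jund at 0.53 and Myc at 1.41. Fos, Ier2, Egr1 and Junb were thus past 2-fold relative to all genes in 7 of 7 settings, Jund in 6, Jun in 4 and Myc in 1. The settings use largely the same cells, and without a filter the members' ratios equal the main ones. The weakest relative values were -1.03 for Egr1 and -1.05 for Junb, close to the threshold. By mean CPM both genes came below 2-fold when 1 cell was left out.

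Cells thinned to 100000 counts, which 45 C10 and 42 SVEC cells reached, gave the detection at equal depth. The expected share of cells with a count was then 73.4% in C10 and 88.1% in SVEC for Fos, and 64.1% and 91.3% for Ier2. Myc had the opposite order, at 68.2% in C10 and 38.8% in SVEC. Jund was the member most exposed to depth. Of these cells, 34 of 45 in C10 and 23 of 42 in SVEC had a Jund count before thinning, and 41.7% and 26.8% were expected to have one after it. Ier3 kept a wider detection in C10 (95.7% against 85.6%), as did Atf3 (31.2% against 19.9%), whereas Junb (91.8% and 93.5%) and Egr1 (57.7% and 60.1%) were close. For Fosl1, 24 of 45 C10 and 14 of 42 SVEC cells had a count before thinning. After it the expected shares of Fosl1 were close, at 30.1% and 25.0%. Jun was at 19.7% in C10 and 26.9% in SVEC.

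A gene at a given mean can be spread over many cells or held by a few, so the number of cells with a count was set beside that of all genes whose mean CPM lay within 1.5 times of the member's. Ier2 was widely spread in SVEC, with a count in 46 cells against a median of 32 over 1082 such genes. Jund was also in more cells than genes of its level, at 35 against 13 in C10 and 23 against 4 in SVEC. Fosl1 showed the same in both lines, at 24 against 11 and 14 against 5. Fos was in fewer cells than genes of its level, at 36 against 41 in C10 and 41 against 44 in SVEC, and so was Atf3, at 17 against 23 and 10 against 12. Part of this detection rested on few reads. At least 5 counts were present in 28 C10 and 8 SVEC cells for Jund, 20 and 10 for Fosl1, and 40 SVEC cells for Ier2. The genes of like level were not recounted by that stricter rule. These counts are descriptions and were not tested.

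**Figure D3:**
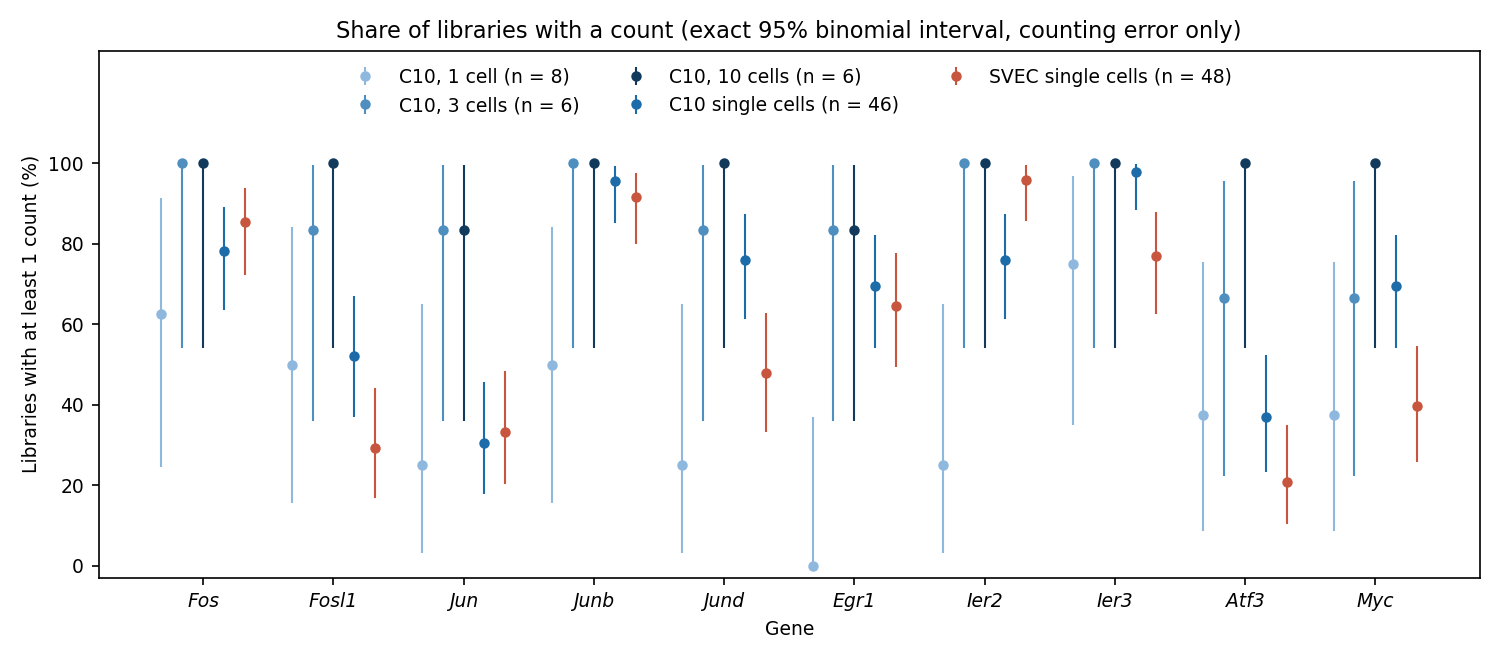
Share of libraries with at least 1 count of each member in the 5 groups, in percent, with exact 95% binomial intervals that cover counting error only. Egr1 is at 0 of 8 in the 1-cell libraries and at 32 of 46 in C10 single cells.

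Divided by exon length in kilobases, levels can also be ordered between genes within a line. In C10 cells the order was Ier3 (279 CPM per kilobase), Junb (76.7), Fos (67.4), Myc (34.1), Ier2 (23.5), Atf3 (13.5), Egr1 (11.5), Jund (6.29), Fosl1 (4.26) and Jun (1.76). In SVEC cells it was Fos (346 CPM per kilobase), Ier3 (250), Junb (158), Ier2 (112), Egr1 (24.1), Myc (18.8), Atf3 (10.3), Jun (4.28), Fosl1 (2.62) and Jund (2.05). Fos thus moved from the third place to the first and Jund from the eighth to the tenth. No neighbours in either order differed by more than both of their SDs over cells.

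A second question was whether the same cells carry several members. A C10 cell had a count for 3 to 9 of the 10 genes, with a median of 7, and an SVEC cell for 0 to 10, with a median of 6. The 10 levels summed to a median of 713 CPM per C10 cell (range 239 to 1863) and 1601 CPM per SVEC cell (range 0 to 3964). In SVEC every one of the 41 cells with a Fos count also had an Ier2 count, while 5 cells had Ier2 without Fos and 2 had neither. In C10, 30 cells had both, 6 had Fos alone, 5 had Ier2 alone and 5 had neither. Fos without Jun was common, in 24 C10 cells and 27 SVEC cells, against 12 and 14 cells with both. Fos without Junb was rare, in 1 C10 cell and 2 SVEC cells. Such pair counts depend on how many cells had each gene. Ier2 had a count in 46 of 48 SVEC cells, Junb in 44 of 46 C10 and 44 of 48 SVEC cells, and Jun in only 14 and 16. The pair counts were not set against the overlap that these totals alone would give, so they do not show that members go together.

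Levels of the members followed each other only loosely from cell to cell. Over the 45 pairs, Spearman's rho of CPM had a median of 0.10 in C10 (range -0.26 to 0.42, 46 cells) and 0.18 in SVEC (range -0.27 to 0.52, 48 cells). The highest values in SVEC were 0.52 for Atf3 and Myc, 0.50 for Jun and Atf3 and 0.46 for Junb and Ier2. In C10 they were 0.42 for both Ier2 with Ier3 and Ier2 with Junb. Fos and Egr1, which share their serum response factor input, were at 0.08 in C10 and 0.12 in SVEC. All points of a line share its preparation and vary in depth, and in SVEC the members' levels moved with the number of genes detected, up to a rho of 0.62 for Myc and 0.54 for Atf3. The part of that in the pairs of Atf3, Jun and Myc was not tested.

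**Figure D4:**
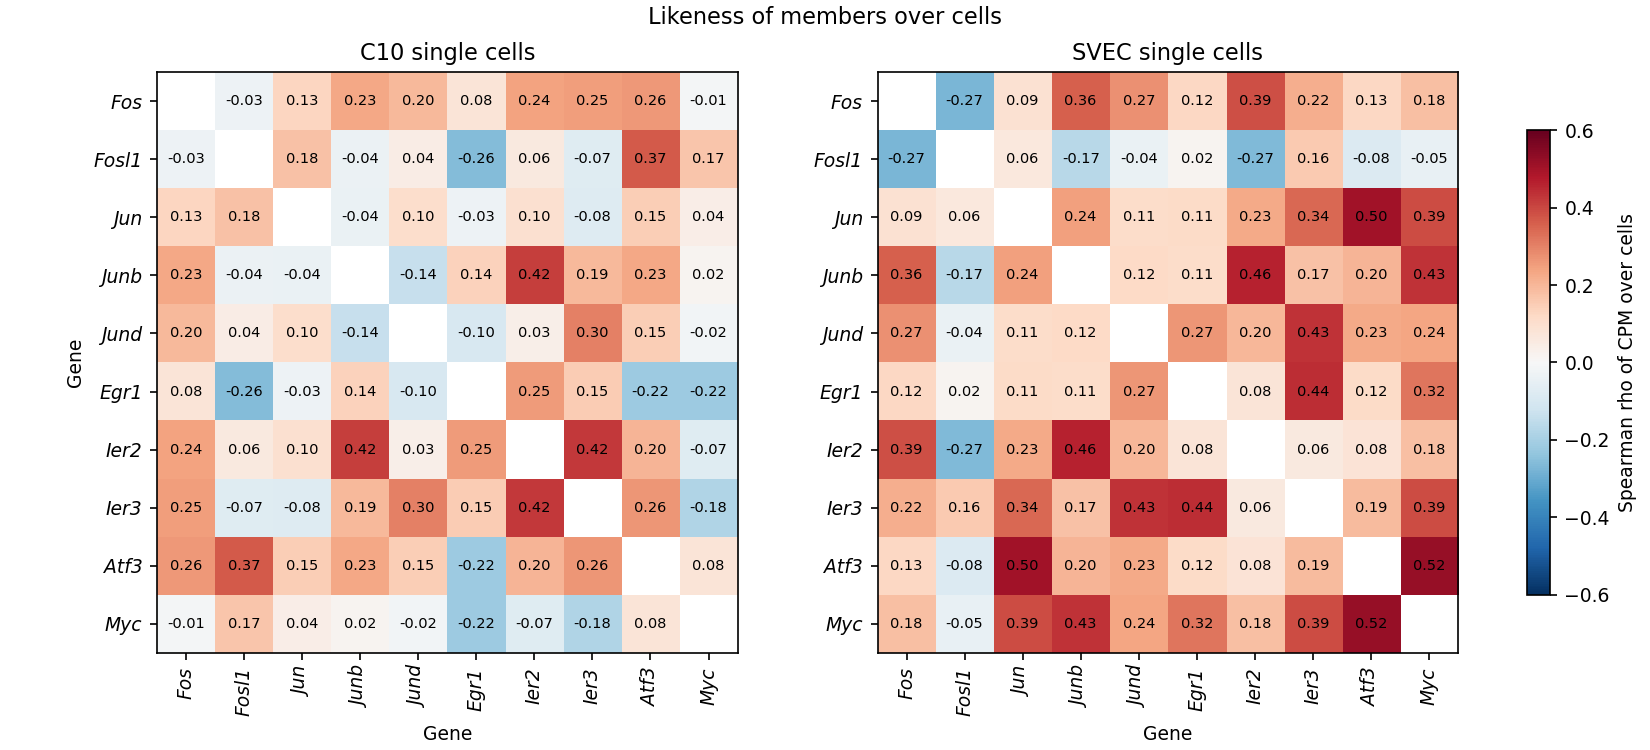
Spearman's rho of CPM between each pair of members over 46 C10 cells (left) and 48 SVEC cells (right), on a colour scale from -0.6 to 0.6. Most squares are pale, and the deepest is Atf3 with Myc in SVEC at 0.52.

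Genes whose levels were most like a member's were taken by Spearman's rho of log2(CPM + 1), at 0.5 or more, among 8963 genes in C10 and 6631 in SVEC with a count in at least 25% of the cells. The closest to Fos were Inpp5k (0.53) in C10 and Lgals8 (0.60) in SVEC. For Egr1 they were Mboat7 (0.55) in C10 and Hes1 (0.66), a Notch target, in SVEC. Myc was closest to Fanca (0.60) and to Slc7a5 (0.59), an amino acid transporter, in C10, and to Ddx10 (0.66) in SVEC. For Atf3 the values were 0.59 with Olfr687 in C10 and 0.72 with Ttc19 in SVEC, and for Junb 0.57 with Sh3gl1 and 0.57 with Frg1. The closest to Jund were Rab24 (0.59) and Nsun2 (0.62), to Fosl1 Hdlbp (0.57) and Hspa13 (0.63), and to Jun Rassf7 (0.57) and Dpy19l1 (0.61). Ier2 was closest to Rex1bd (0.52) and Ncoa1 (0.53), and Ier3 to Mxra8 (0.53) and Cep20 (0.60). No member was among the 3 closest genes of another, and none of these closest genes was shared between the lines. Such values are the highest of many in sparse counts and are descriptions only.

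Related genes were counted by the same 2-fold rule between the lines, by which 18.9% of all genes were higher in C10 and 18.5% higher in SVEC. Of 16 other AP-1 family genes, 10 were frequent enough to be considered, with 2 higher in C10, 1 higher in SVEC and a median log2 ratio of 0.36. The 2 in C10 were Jdp2, a repressor that dimerises with Jun proteins (23.5 ± 30.9 against 5.08 ± 20.4 CPM), and the small Maf protein Mafg (39.2 ± 46.4 against 12.7 ± 31.7 CPM). Of 28 other immediate early genes, 18 were considered, with 2 higher in C10, 3 higher in SVEC and a median of -0.18. Among them Klf4, a zinc-finger factor, averaged 68.3 ± 66.7 CPM in C10 and 18.6 ± 48.1 CPM in SVEC, and the matricellular gene Ccn1 averaged 536 ± 405 and 1200.3 ± 1130.1 CPM.

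Of 24 genes of the ERK pathway, its feedback inhibitors and the factors that act on the serum response element, 21 were considered, with 5 higher in C10, 6 higher in SVEC and a median of -0.46. The kinases Mapk3 (107 ± 95.2 against 43.7 ± 96.0 CPM) and Map2k1 (113 ± 103 against 54.8 ± 77.8 CPM) were higher in C10. Mrtfa, a coactivator of serum response factor, was higher in SVEC (34.7 ± 87.2 against 13.1 ± 23.6 CPM). Of 11 Myc partners and antagonists, 7 were considered, with 0 higher in C10, 2 higher in SVEC and a median of -0.30. Over all genes considered, 18.9% were higher in C10, 18.5% were higher in SVEC and the median was 0.0017. None of these lists was tested.

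The input series asks what a library shows as it holds 1, 3 or 10 C10 cells. A count was present for a median of 4 of the 10 members in 1-cell libraries (range 0 to 7), 8.5 in 3-cell libraries (range 8 to 10) and 10 in 10-cell libraries (range 8 to 10). Detection rose over all genes as well, from a median of 7568 genes to 10257.5 and 12986 in the same order. Egr1 was the member that passed edgeR's test: it was at 0 in all 8 libraries of 1 cell and present in 5 of 6 libraries of 3 cells and 5 of 6 of 10 cells. No other member passed it. The filter takes genes with a count in at least 50% of the libraries of any 1 group. Egr1 entered the test only through the 3-cell and 10-cell groups, so its call is not independent of that filter. In libraries of several cells, fewer cells with a transcript and less transcript per cell cannot be told apart.

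Egr1 ranged from 0 to 76.1 CPM in 3-cell libraries with a median of 37.0, and from 0 to 55.8 CPM in 10-cell libraries with a median of 43.5. Among the 10-cell libraries, replicates 1, 2, 5 and 6 lay between 43.5 and 55.8 CPM, replicate 9 was at 0.20 CPM and replicate 10 at 0, so they overlapped the 1-cell libraries only at 0. The mean Egr1 level was 34.8 ± 29.7 CPM (SD, n = 6) in 3-cell and 32.2 ± 25.3 CPM (SD, n = 6) in 10-cell libraries. Against a floor of 3 counts in each 1-cell library, which averaged 1.12 CPM, Egr1 was at least 31.1-fold higher in the former and at least 28.7-fold higher in the latter. Without 1-cell replicate 1 the floor was 0.286 CPM and the bounds were at least 122-fold and at least 112-fold.

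By edgeR's quasi-likelihood test over all 20 libraries of the series, with Benjamini-Hochberg adjustment over 13645 genes, Egr1 rose in 10-cell against 1-cell libraries (adjusted p = 0.0230) and in 3-cell against 1-cell libraries (adjusted p = 0.0330). It was 1 of 10 members in each. Of all genes, 10.7% passed with 10 cells (10.6% higher and 0.0879% lower) and 6.35% with 3 cells (6.07% higher and 0.278% lower). The fitted log2 fold changes of 11.31 and 11.54 depend on how a group of zeros is handled and are no bounds. The edgeR call of Egr1 for 3 cells was lost without 1-cell replicate 1, 5, 9 or 14 (adjusted p of 0.0567, 0.0541, 0.0519 and 0.0517), and that for 10 cells held without any 1 library but not when no gene filter was used (adjusted p = 0.0514). By limma the adjusted p of Egr1 was 0.0392 for 10 cells and 0.0822 for 3 cells. By edgeR with a replicate block the adjusted p was 0.0747 for 10 cells and 0.235 for 3 cells. Over all genes, the edgeR calls for 10 cells numbered 1456, and 336 without 1-cell replicate 1 or 2769 without 1-cell replicate 10. For 3 cells they numbered 866, and 32 without 1-cell replicate 1 or 9 and 2035 without replicate 10, with other values between these without 1-cell replicates 2, 5, 13 and 14. These p-values measure the spread between libraries, which may be technical.

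Apart from Egr1, which was at 0 in every 1-cell library, the members scattered widely among 1-cell libraries and less among larger ones. Fos was at 0 to 325 CPM in 1-cell libraries (median 90.8), 33.4 to 260 CPM in 3-cell libraries (median 148) and 105 to 338 CPM in 10-cell libraries (median 127). Its means of 124 ± 140, 151 ± 95.3 and 165 ± 88.9 CPM differed by less than their SDs. Ier3 was at 0 to 682 CPM (median 48.7), 173 to 483 CPM (median 281) and 188 to 437 CPM (median 262) in the same order. Both genes overlapped between all 3 groups.

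Ier2 had a count in 2 of 8 libraries of 1 cell and in all 12 of the larger ones, at 26.9 to 326 CPM with 3 cells (median 58.0) and 38.5 to 130 CPM with 10 cells (median 114). Junb went from 4 of 8 libraries with a count to 12 of 12, with means of 150 ± 223, 156 ± 90.6 and 133 ± 54.0 CPM. Jun had a count in 2 of 8, 5 of 6 and 5 of 6 libraries, with means of 8.64 ± 16.1, 42.7 ± 38.5 and 31.1 ± 27.5 CPM. These 3 genes thus gained libraries with a count, while their levels did not pass the edgeR test. By limma on log2(CPM + 1), Ier2 passed for 10 cells against 1 cell (adjusted p = 0.0179), with a log2 difference of 4.83. Of all 13645 genes limma called 1418 in that comparison, all higher, with a median log2 difference of 1.45 over all genes.

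Myc was at 281 CPM in 1-cell replicate 6 and at 9.29 CPM or less in the other 7, so that this library held 96.8% of the group's summed level. In 3-cell libraries it ranged from 0 to 199 CPM (median 68.9) and in 10-cell libraries from 28.0 to 208 CPM (median 75.2). By limma Myc passed for 10 cells against 1 cell (adjusted p = 0.0423), but not by edgeR. Limma called 1418 of 13645 genes there, as given above. Atf3 was at 566 and 356 CPM in 1-cell replicates 13 and 10 and at 0.13 CPM or less in the others. With 3 cells Atf3 was at 0 to 58.0 CPM (median 9.95), and with 10 cells at 0.53 to 67.1 CPM (median 26.8). Both genes had a count in all 6 libraries of 10 cells.

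Fosl1 was at 152 CPM in 1-cell replicate 10 and at 6.80 CPM or less elsewhere in that group, at 0 to 26.9 CPM with 3 cells and at 8.41 to 37.1 CPM with 10 cells. Jund was seen in 2 of 8, 5 of 6 and 6 of 6 libraries, with maxima of 22.4, 13.0 and 24.0 CPM. The SD divided by the mean was smaller with 10 cells than with 1 cell for all 9 members that had a count in each group, also without 1-cell replicate 1. It went from 1.13 to 0.54 for Fos, from 1.93 to 0.33 for Ier2 and from 2.73 to 0.75 for Myc. The same held for 93.7% of 10159 genes with a count in at least 50% of the 20 libraries, whose median went from 1.65 to 0.70.

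**Figure D5:**
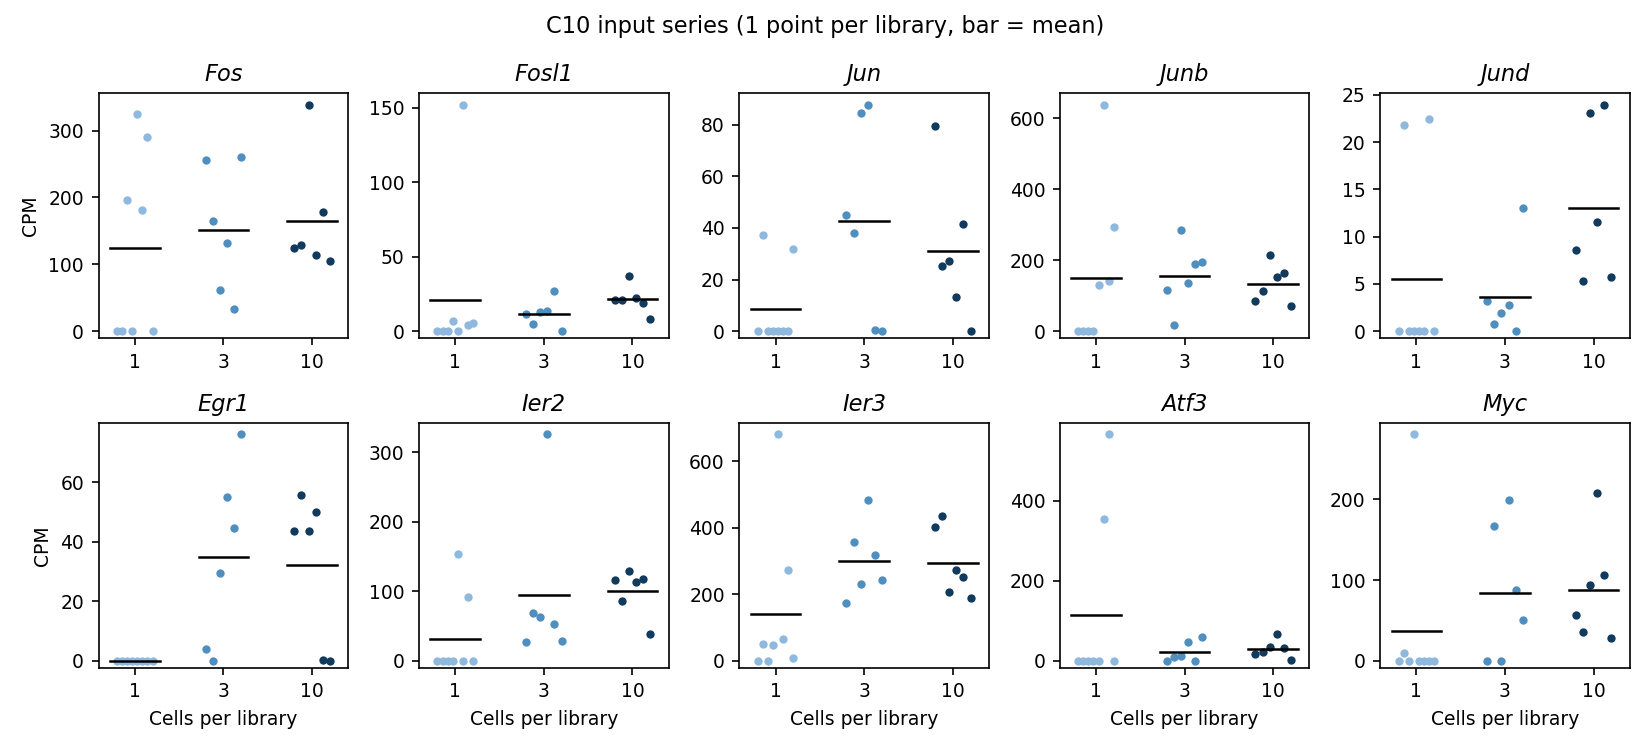
CPM of each member in every library of the input series, against the number of C10 cells per library, with a bar at the mean and a separate linear scale for each gene. Egr1 is at 0 in the 8 libraries of 1 cell, and single libraries of that group carry the highest Myc and Fosl1 levels.

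No member passed the test between 10 and 3 cells: edgeR called 0 of 10, with 0 at an unadjusted p under 0.05, and limma and DESeq2 also called 0. Over all genes edgeR called 0%, with 1346 genes at an unadjusted p under 0.05. Of the related lists, 3 of 23 tested immediate early genes (Ier5l, Nr4a3 and Plk3), 6 of 22 ERK pathway genes (Braf, Dusp5, Elk1, Rps6ka3, Spred1 and Spry2), 1 of 8 Myc partners (Mxd4) and 0 of 9 other AP-1 genes were called higher in 10-cell against 1-cell libraries, and none fell, where 10.7% of all genes passed. In 3-cell against 1-cell libraries these counts were 0, 5, 2 and 0, and again none fell, where 6.35% of all genes passed. Most of these calls set larger libraries against a 1-cell group of zeros, as for Egr1. Ier5l, Nr4a3, Braf, Dusp5, Dusp7, Elk1, Rps6ka3, Spred1 and Mxd4 were at 0 in all 1-cell libraries. Plk3 had a count in 1 of them, and Spry2 and Mxi1 in 5 each. The genes at 0 there entered the test only through the larger libraries, as Egr1 did.

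The 1-cell libraries of the input series and the C10 single cells are both single C10 cells, listed as separate sets of libraries, and are set side by side without a test. The input libraries were deeper (a median of 10157062 against 1881704 counts) and detected more genes (a median of 7568 against 6103), yet held a count for fewer members, with medians of 4 and 7. Egr1 was at 0 of 8 libraries there (upper limit of the exact binomial interval 36.9%) and in 32 of 46 C10 single cells. The share of a library's counts that 3 counts make up had a median of 3.05e-05% over the 1-cell libraries. Jund was in 2 of 8 against 35 of 46, Ier2 in 2 of 8 against 35 of 46, and Junb in 4 of 8 against 44 of 46. Jun and Atf3, the members least often seen in single cells, were in 2 and 3 of the 8. Of 5770 genes with a count in at least 50% of the C10 single cells, the median gene was present in 6 of the 8 input libraries and 26 (0.451%) were in none. The 8 members in that set had a median of 3.5 of 8, and Egr1 was the 1 at 0.

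Pools of 10 cells and the average C10 single cell gave close levels for most members. Mean CPM with 10 cells and over single cells was 165 and 142 for Fos, 133 and 139 for Junb, 293 and 315 for Ier3, 88.1 and 83.3 for Myc, 28.6 and 29.1 for Atf3, 13.0 and 10.5 for Jund, and 32.2 and 51.6 for Egr1. The 3 members beyond 2-fold were all higher in the pools: Jun at 31.1 against 5.62 CPM, Ier2 at 99.9 against 35.7 CPM and Fosl1 at 21.4 against 7.95 CPM. Of 14961 genes considered, 41.7% were beyond 2-fold between these sets, with a median log2 ratio of 0.078. The sets were prepared separately, so the number of cells and the preparation cannot be told apart.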

How the data were processed

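RNA was measured in 116 libraries, 1 file each. Per the submitters' processing notes the tools were FastQC, STAR and HTSeq. Their versions, the genome build, the annotation and the strand setting are not given in the sources used here. The authors deposited whole-number read counts per gene symbol, with 5 closing counters for unassigned reads that were left out here. Reads were single, of 150 bases, from full-length cDNA, per the labels' protocols. Groups were taken from the labels, and 114 libraries with at least 1000 counts were used. No pair of these held identical counts.

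The members and the lists were chosen with earlier results of these data known. The genes named were the 10 members, list genes past 2-fold with counts in at least 50% of the cells of the higher line (up to 5 per list), and up to 3 genes per member and line with a rho of at least 0.5. From the counts, CPM was computed on the library total. The 2-fold rule took genes with a count in at least 25% of the cells of a line. In that rule a gene at 0 in 1 line was set to 3 counts per library. The input series was fitted with edgeR 4.0.16 in R 4.3.3 (TMM, quasi-likelihood, adjusted p under 0.05) as 1 model of 3 groups, over genes that had a count in 50% or more of any group's libraries. Median depth ran from 434945 counts in SVEC cells to 11425140 in 10-cell libraries. Alternatives were other scalings, filters, limma 3.58.1, DESeq2 1.42.0, a replicate block and leaving out each library. Exon lengths were the union of exons of protein-coding transcripts in the GENCODE basic annotation. Overlaps, the 37 mitochondrial genes and promoter windows came from RefSeq (GRCm38.p6).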

Additional observations from a re-analysis of the deposited data

Results flagged for a closer look

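Among the 29 groups of member levels in the input series, 7 held a library whose gap to its nearest neighbour was large for the group's range. The rule was Dixon's 95% limit, by which chance flags about 1 in 20 groups (1.45 of 29) of normally distributed values. Levels in 1-cell libraries were not of that kind: Myc had a count in 3 of 8 libraries and Fosl1 in 4 of 8. The 7 flagged libraries are therefore not shown to be more than chance would give. In 1-cell libraries these were Fosl1 in replicate 10 (152 CPM, next highest 6.80), Junb in the same replicate (638 CPM, next 294), Ier3 in replicate 9 (682 CPM, next 274) and Myc in replicate 6 (281 CPM, next 9.29). In 3-cell libraries they were Jund in replicate 10 (13.0 CPM, next 3.19) and Ier2 in replicate 6 (326 CPM, next 68.1), and in 10-cell libraries Fos in replicate 5 (338 CPM, next 178).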

How the results depend on the processing

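Between the lines, 5 or 6 members were past 2-fold under each of the 6 other settings, but not the same ones: TMM and the mean of log2(CPM + 1) dropped Jun, Junb and Egr1 and gained Myc, with Fosl1 under TMM and Ier3 under the mean of logs, and turned the split from 1 higher in C10 and 5 in SVEC to 3 and 2. In the input series, members called for 10 cells against 1 cell were 1 with edgeR, 3 with limma (Egr1, Ier2 and Myc), 0 without a gene filter and 0 with the replicate block, and 1 on leaving out any library. For 3 cells against 1 cell the number was 1 with edgeR, 0 with limma and 0 with the replicate block, and 0 to 1 on leaving out a library. Genes called for 10 cells were 1418 with limma (all higher), 48 without a filter and 0 with the replicate block, and 336 to 2769 on leaving out a library. For 3 cells they were 121 with limma, 65 without a filter, 0 with the block and 32 to 2035 on leaving out a library. For 10 against 3 cells, DESeq2 called 289 genes and limma 35, and leaving out a library gave 0 to 0. Under the replicate block Egr1 had adjusted p = 0.0747 for 10 cells and 0.235 for 3 cells by edgeR. Same-numbered libraries did not deviate together (mean correlations -0.0040, 0.022 and 0.016 over 6 pairs each), so the numbers were not taken to pair them. The causes of these shifts were not tested. Depth limits the low members most: Jund rested on 113 counts in all SVEC cells.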
